A study of Mus musculus with 16 samples.

Results

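Open chromatin of progenitors carrying both NUP98-HOXD13 and Flt3-ITD was compared with that of wild-type progenitors of the same set of samples. The members were all regions of chromosomes 1 to 19 that held a peak in either of the 2 peak lists, after overlapping peaks had been merged over both lists. They numbered 97444, of 118981 regions in the 8 lists of the whole series. A region was called gained if only the double mutant list held a peak in it, lost if only the wild-type list did, and shared if both did. There were 10100 gained regions (10.4% of the 97444), 22847 lost regions (23.4%) and 64497 shared regions (66.2%).

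The cells were mouse haematopoietic progenitors that the labels also call MPP, from mice 21 days old in every group. The double mutant group was labelled NUP98-HOXD13/Flt3-ITD and the wild-type group wildtype, and each had 2 samples. Both belonged to the samples called set 2 here, with a group of NUP98-HOXD13 and a group of Flt3-ITD. Set 1 held the groups Flt3-ITD/Runx1-het, Runx1-het, Flt3-ITD and wildtype. The labels do not say how the sets differ beyond their titles. The labels do not give the strain, the promoter of the fusion transgene, the copy number of either mutation, or whether the 2 samples of a group came from separate animals. Both samples of a group named the same deposited peak list, so no value below has a replicate error and no test between genotypes was possible. Read depth was unknown. In bulk samples a region with fewer open copies and a region open in fewer cells cannot be told apart.

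ATAC-seq uses the Tn5 transposase to insert adapters into DNA that is not wrapped in nucleosomes, so a peak marks an open promoter or a distal regulatory element. NUP98-HOXD13 joins part of a nuclear pore protein to the DNA-binding homeodomain of HOXD13, a developmental transcription factor, and is known from myelodysplastic syndrome and acute myeloid leukaemia. NUP98 fusions are known to keep HOX genes active in blood progenitors, where HOX proteins bind DNA with MEIS and PBX cofactors. Flt3-ITD is a duplication within the receptor tyrosine kinase Flt3 that lets it signal without its ligand, and STAT5 and MAPK are among its downstream pathways.

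Each peak carried the −log10 p of the authors' peak caller, which was used only to rank peaks within their own list. The double mutant list held 125898 peaks in 75158 intervals covering 49.2 Mb, and the wild-type list held 134913 peaks in 88774 intervals covering 52.3 Mb. The median −log10 p per interval was 41.3 in the double mutant and 60.2 in the wild type. An interval could hold several summits, each listed as a peak, with 1.675 peaks per interval in the double mutant and 1.52 in the wild type. Lists of equal numbers of peaks therefore still held unequal numbers of intervals, and a comparison of the 75158 highest intervals of each list was added after this had been seen. Regions were called strong where the highest peak lay within the top 25% of the list it came from.

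The labelled cell type was checked at promoters, taken as 250 bases before to 50 bases after a RefSeq start site (build GRCm38.p6). A promoter was called covered by a list if a peak of that list overlapped this window. Flt3, the receptor that marks multipotent and lymphoid-primed progenitors, had a promoter peak at −log10 p 1041.3 in the wild type and 496.9 in the double mutant. Kit, the stem cell factor receptor, had 360.4 and 244.1, and Cd34, a surface marker of progenitors, had 705.6 and 266.3. Some promoters of mature lineages were covered in neither list, as at Cd3e, Cd3d, Cd3g and Cd8a (T cells), Pax5, Cd22 and Vpreb1 (B cells), Elane, S100a8 and S100a9 (neutrophils) and Klf1 (erythroid cells). Other genes of the same marker lists were covered in both genotypes. Among these were Lck, Gata3, Nkg7 and Prf1 (T and NK cells), Cd72, Blnk and Cd79a (B cells) and Ltf, Lyz2, Itgam and Mpo (granulocyte-monocyte). Ltf had 160.3 in the wild type and 57.7 in the double mutant, and Lyz2 136.4 and 78.9. Promoters were covered at 16 of 16 stem cell genes in the wild type and 14 in the double mutant, at 16 and 15 of 19 lymphoid priming genes and at 11 and 11 of 22 granulocyte-monocyte genes. B cell genes had 4 and 4 of 11, T and NK cell genes 7 and 6 of 17, megakaryocyte-erythroid genes 9 and 9 of 15, dendritic cell genes 11 and 10 of 16, mast cell, basophil and eosinophil genes 7 and 6 of 15, and stroma and endothelium genes 7 and 6 of 10. Peaks cannot read the fusion or the duplication, so they did not check the genotype labels.

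5 promoters covered in 1 list only are shown, chosen after their values had been seen because they stand for the interferon, HOX and imprinted genes described below. Each is the 250 bases before the RefSeq start site (GRCm38.p6), 5′ to 3′ on the gene's own strand. Capitals mark matches, on either strand, to a motif among 6 that were searched. The motifs were an interferon-stimulated element (GAAA, any 2 bases, GAAA), a STAT site (TTCNNNGAA), a RUNX site (TGTGGTT), a HOX group 13 site (CAATAAA), a PBX-HOX site (TGATTNAT) and a MEIS site (TGACAG). The Oas1a, Oasl1 and Hoxd4 promoters were covered in the double mutant only, and the Hoxd13 and Ndn promoters in the wild type only.
Oas1a (chr5:120907526-120907775, minus strand): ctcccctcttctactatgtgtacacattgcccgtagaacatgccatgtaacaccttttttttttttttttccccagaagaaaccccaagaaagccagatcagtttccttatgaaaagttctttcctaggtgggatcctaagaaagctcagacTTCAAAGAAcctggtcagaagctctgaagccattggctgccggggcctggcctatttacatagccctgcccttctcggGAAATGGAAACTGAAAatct
Oasl1 (chr5:114922990-114923239, plus strand): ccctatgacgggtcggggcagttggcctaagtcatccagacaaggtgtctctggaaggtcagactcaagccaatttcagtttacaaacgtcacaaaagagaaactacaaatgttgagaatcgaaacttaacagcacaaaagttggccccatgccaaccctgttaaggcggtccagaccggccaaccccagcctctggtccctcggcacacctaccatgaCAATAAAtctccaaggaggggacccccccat
Hoxd4 (chr2:74721728-74721977, plus strand): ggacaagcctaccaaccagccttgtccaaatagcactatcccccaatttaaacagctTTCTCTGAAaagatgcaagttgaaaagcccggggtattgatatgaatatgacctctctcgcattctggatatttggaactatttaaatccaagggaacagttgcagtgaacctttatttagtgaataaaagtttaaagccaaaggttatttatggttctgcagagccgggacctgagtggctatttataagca
Hoxd13 (chr2:74667975-74668224, plus strand): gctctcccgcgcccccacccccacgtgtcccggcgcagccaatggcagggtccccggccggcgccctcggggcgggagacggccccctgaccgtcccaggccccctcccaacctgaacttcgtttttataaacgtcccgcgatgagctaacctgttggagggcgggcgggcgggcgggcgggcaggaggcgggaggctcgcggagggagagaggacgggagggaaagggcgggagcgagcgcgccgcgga
Ndn (chr7:62348027-62348276, plus strand): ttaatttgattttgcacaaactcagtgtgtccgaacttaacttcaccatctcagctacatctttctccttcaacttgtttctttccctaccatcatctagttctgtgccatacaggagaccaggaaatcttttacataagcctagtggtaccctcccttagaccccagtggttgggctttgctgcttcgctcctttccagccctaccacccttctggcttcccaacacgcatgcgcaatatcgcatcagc

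In the Oas1a window the interferon-stimulated element matched at 20 and, overlapping it, at 14 bases upstream of the start site, and a STAT site matched on both strands at 98 bases upstream. The Oasl1 window held a HOX group 13 match at 31 bases upstream and the Hoxd4 window a STAT match on both strands at 193 bases upstream. None of the 6 motifs was in the 250 bases shown for Hoxd13 or Ndn. Among all 20085 promoter windows of 300 bases, 3.38% held the interferon-stimulated element, 7.78% a STAT site, 3.65% a HOX group 13 site, 4.77% a RUNX site, 2.74% a PBX-HOX site and 18.4% a MEIS site. A match is a description of the letters and not a measured binding site.

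Gained and lost regions were mostly weak and narrow. The median gained region spanned 399 bp at −log10 p 14.6 and fold enrichment 4.65, and the median lost region spanned 371 bp at −log10 p 22.9 and fold enrichment 5.79. Shared regions had a median span of 627 bp and −log10 p 50.4 in the double mutant, and 595 bp and 91.4 in the wild type. Of regions in the top 10% of the double mutant list 0.0175% were absent from the wild type, and of those in the lowest 10% of that list 96.7% were. For the wild-type list the same shares were 0.2% and 94.9%. At equal numbers of intervals the shares ran from 0% to 71.0% in the double mutant and from 0.04% to 53.7% in the wild type.

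**Figure D1:**
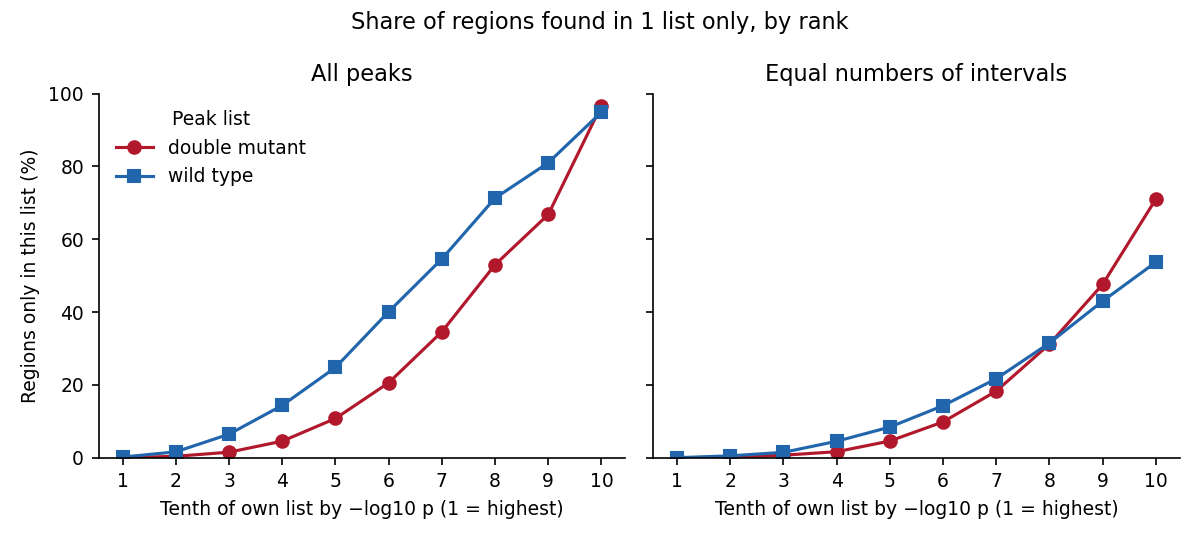
Share of regions found in 1 list only (vertical axis, percent) against rank in the own list by −log10 p, from the highest ranked 10% on the left to the lowest on the right, for the double mutant (red circles) and the wild type (blue squares). The share runs from 0.0175% to 96.7% for the double mutant with all peaks and from 0% to 71.0% with equal numbers of intervals.

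The numbers of gained and lost regions depended on the length of the lists. With the same number of peaks, 125898 in each list, 10104 regions were gained (10.4% of 97288) and 22691 lost (23.3%). With the same number of intervals, 13614 were gained (15.5% of 87786) and 13174 lost (15.0%), so that the numbers were nearly the same. Strong losses outnumbered strong gains in these 3 comparisons, but not against the set 1 wild type, which gave 16254 gained and 12959 lost regions, 352 of them strong gains and 118 strong losses. There were 92 strong gains (0.0944% of all regions) and 497 strong losses (0.51%) with all peaks, 92 (0.0946%) and 385 (0.396%) with equal numbers of peaks, and 31 (0.0353%) and 81 (0.0923%) with equal numbers of intervals. At the edge of the strong class, the last gained regions inside had −log10 p 63.45 to 63.54 and the first outside 62.94 to 63.08. The last lost regions inside had 103.06 and the first outside 102.95 to 102.97.

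The measure of error used was the difference between the wild-type lists of set 1 and set 2, which also holds any difference between the sets. With all peaks, 7.49% of their 94928 merged regions were only in set 1 and 24.5% only in set 2. At the same number of intervals in each of 3 lists, 72460, the wild-type lists differed by 13.5% only in set 1 and 13.7% only in set 2. The double mutant against the set 2 wild type then gave 15.0% gained and 14.4% lost, close to the difference between the wild types. Strong regions separated further. The wild types differed by 1 strong region only in set 1 and 27 only in set 2, against 31 strong gains and 76 strong losses in the double mutant. The set 1 wild type held a peak in 26.0% of gained, 37.4% of lost and 86.7% of shared regions. It held a peak in 22 of the 92 strong gains (23.9%) and in 431 of the 497 strong losses (86.7%).

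Gained and lost regions lay away from start sites. Promoter windows met 1.7% of gained, 1.93% of lost and 16.3% of shared regions, and the median distance to the nearest start site was 35.9 kb, 51.7 kb and 25.4 kb. Over 100 kb from any start site lay 24.8% of gained, 34.7% of lost and 21.9% of shared regions. No protein-coding gene lay within 100 kb of 8.83% of gained, 14.2% of lost and 7.02% of shared regions, and 55.0%, 51.5% and 61.7% lay inside a gene span. By chromosome the share of gained regions ran from 8.44% on chromosome 7 to 12.4% on chromosome 11, and the share of lost regions from 19.6% on chromosome 11 to 25.7% on chromosome 6.

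**Figure D2:**
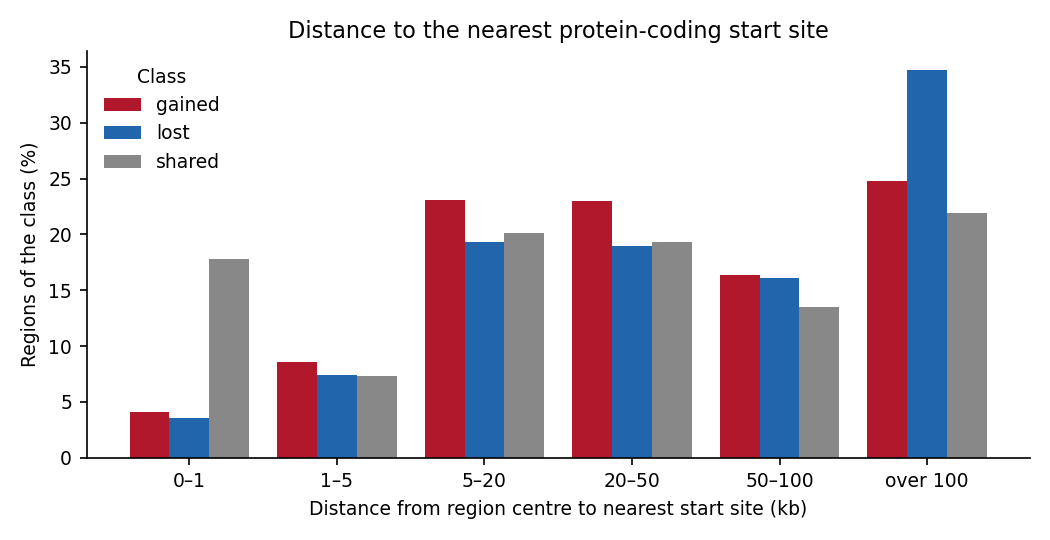
Share of gained (red), lost (blue) and shared (grey) regions, in percent of their class, by distance in kb from the region's centre to the nearest protein-coding start site, with all peaks. The first group of bars holds 4.12% of gained, 3.54% of lost and 17.8% of shared regions, and the last 24.8%, 34.7% and 21.9%.

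Among gained regions with a gene within 100 kb, those with the highest −log10 p were intronic or distal in most cases, and they fell into different patterns over the 8 lists. A region inside Ptprd, a receptor tyrosine phosphatase (chr4:77627066-77627660), led these with −log10 p 150.7 and fold enrichment 16.6. It had 39.8 in the NUP98-HOXD13 list, 40.1 in the set 2 Flt3-ITD list, 148.0 in set 1 Flt3-ITD and 144.4 in the Flt3-ITD/Runx1-het list. Runx1-het and both wild types had no peak there. The region was thus present in every list with a mutation of set 2 and in all 4 Flt3-ITD lists.

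Another pattern was a peak in the NUP98-HOXD13 lists alone. A region in Gramd1b (chr9:40429729-40430443) had −log10 p 127.2 in the double mutant and 132.3 in NUP98-HOXD13, and no peak in the other 6 lists. Regions at Grxcr1 (123.6 and 111.9), Klhl3 (115.9 and 157.1), Pde4dip, which encodes a centrosomal scaffold protein (115.8 and 83.0), and Ift80, which encodes an intraflagellar transport protein (114.2 and 44.1), had the same presence and absence. Tgfa, which encodes a ligand of the EGF receptor, had a region 25302 bp from the gene with 112.0 in the double mutant, 80.9 in NUP98-HOXD13 and 19.7 in set 1 Flt3-ITD.

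Several of the highest gains were peaks that the set 2 wild type lacked while the set 1 wild type held them. The promoter region of H2-Q6, a class Ib major histocompatibility gene (chr17:35424596-35424992), had −log10 p 116.5 in the double mutant and 125.7 in the set 1 wild type, and was missing from the set 2 wild type alone. Map4k5, a kinase gene, had 133.2 in the double mutant and 51.3 in the set 1 wild type. Mbd1, a methyl-CpG binding protein gene, had 137.5 and 39.2 in a region 12508 bp away, Ltbp1, which encodes a TGF-beta binding protein, 132.7 and 23.8, and Stx2, a syntaxin gene, 124.9 and 18.5. H2 genes are near copies of each other, so reads could be split between them.

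The strongest gain without a gene within 100 kb, chr8:96159810-96160589, had −log10 p 201.6 in the double mutant, 46.1 in set 2 Flt3-ITD, 121.2 in set 1 Flt3-ITD and 239.8 in Flt3-ITD/Runx1-het. It had no peak in the NUP98-HOXD13 list, in Runx1-het or in either wild type, so it was present in the 4 Flt3-ITD lists alone. The next, chr1:114039121-114040119, had 122.3 in the double mutant and 207.5 in NUP98-HOXD13 and no peak elsewhere.

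Among lost regions with a gene within 100 kb, the 12 highest, 1 per gene, were held by 5 or more of the other 6 lists. The promoter region of Daxx, which encodes a chaperone of the histone variant H3.3 (chr17:33908736-33909941), had −log10 p 396.0 in the wild type and from 99.9 to 349.5 in the other 6 lists, and no peak in the double mutant. A region in Mgat4b, a glycosyltransferase gene, had 403.4 in the wild type and was missing from both NUP98-HOXD13 lists, as were regions at Slco6d1 (345.0), Adgrb1 (303.9), Clint1 (274.2) and Chrm3 (273.4). Clstn2 (339.0), Pid1 (323.0), Nipsnap2 (314.5), Cadps (279.7) and Cox10 (277.2) had a peak of 19.3 to 49.6 in the NUP98-HOXD13 list. The promoter region of Ndn, an imprinted gene linked to stem cell quiescence (chr7:62348058-62349110), had 281.7 in the wild type and 46.1 in NUP98-HOXD13 and was also absent from Flt3-ITD/Runx1-het. The highest loss without a gene within 100 kb, chr2:64709279-64710176, had 381.3 in the wild type, 106.6 in the set 1 wild type, 271.5 in set 1 Flt3-ITD, 48.3 in Runx1-het and 107.6 in set 2 Flt3-ITD. It had no peak in NUP98-HOXD13, Flt3-ITD/Runx1-het or the double mutant.

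**Figure D3:**
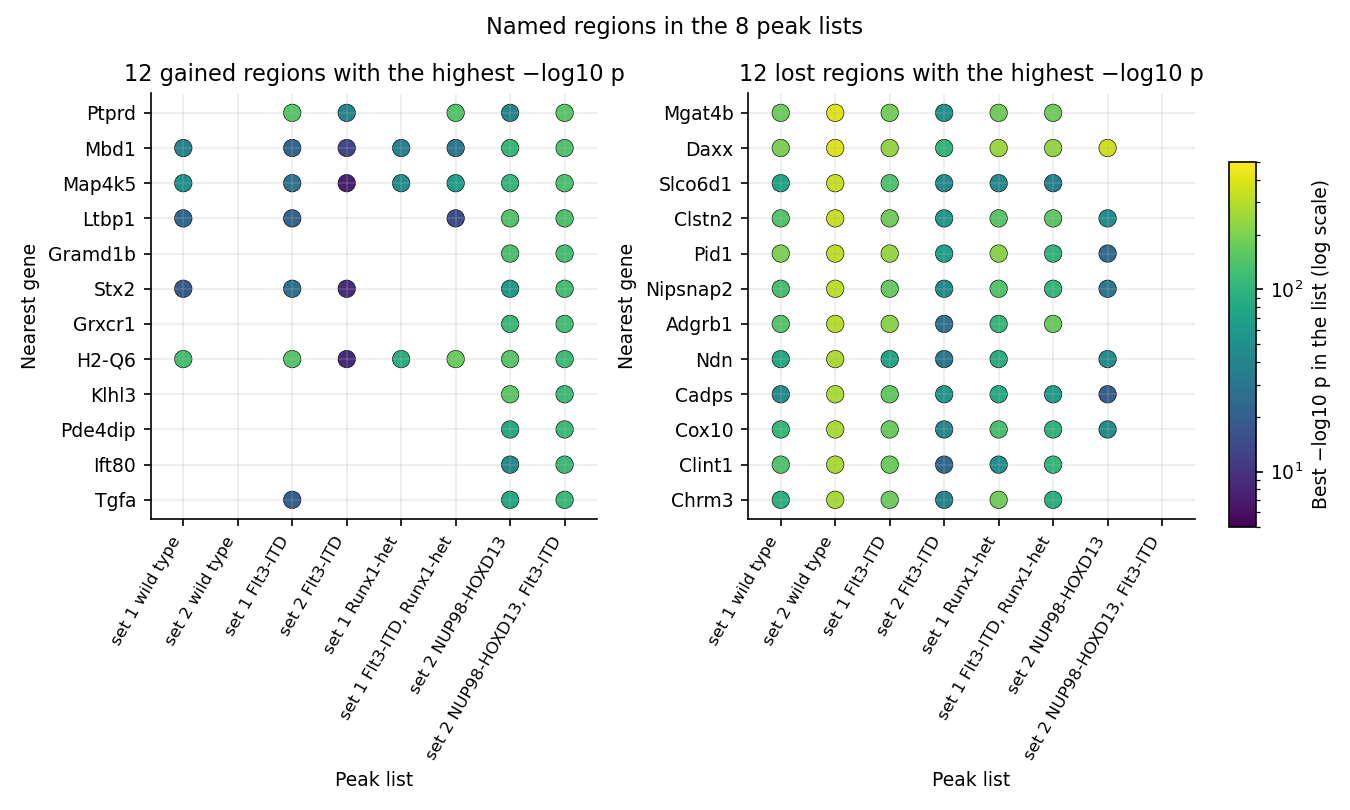
The 12 gained and 12 lost regions with the highest −log10 p among those with a gene within 100 kb, 1 per gene (rows, named by the nearest gene), in the 8 peak lists (columns). A dot marks a peak, coloured by its best −log10 p on a log scale, and an empty place marks no peak, as for Gramd1b in the 6 lists without NUP98-HOXD13.

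Gained regions were frequent in and around the Hoxb and Hoxc clusters, outside promoter windows. Of 86 regions whose nearest gene was in 1 of the 4 Hox clusters, 31 were gained (36.0%) and 10 lost (11.6%), against 10.4% gained and 22.1% lost among the 88773 regions with a gene. On the 75158 highest intervals per list 38 of 79 were gained (48.1%) and 3 lost (3.8%), against 15.5% and 13.9%. The gains lay mainly in the Hoxb cluster (12 gained and 1 lost of 23) and the Hoxc cluster (14 and 2 of 24). The Hoxa cluster had 4 gained and 2 lost of 22. The Hoxd cluster, the home of the fusion partner's own gene, had 1 gained and 5 lost of 17. With equal numbers of intervals the direction at Hoxd turned, with 3 gained and 1 lost of 13. Hoxb then had 13 gained and 1 lost of 23, Hoxc 17 and 0 of 22, and Hoxa 5 and 1 of 21. No test of these shares was made. Promoters of the list of HOX and cofactor genes did not show such an excess. They were covered at 14 of 26 genes in the wild type and 13 in the double mutant, 4 of them in the wild type only and 3 in the double mutant only.

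In the Hoxb cluster the highest gain lay inside Hoxb3 (chr11:96306853-96307239) with −log10 p 80.1 in the double mutant, 36.0 in NUP98-HOXD13 and no peak in the other 6 lists. A region in Hoxb9 (chr11:96270955-96271524) had 40.1 and 21.3 and no peak elsewhere. Regions at Hoxb7 (21.5 and 24.5), Hoxb2 (18.6 and 14.2) and Hoxb1 (13.8 and 8.3) were likewise present in the NUP98-HOXD13 lists alone. Hoxb8 (14.9), Hoxb6 (18), Hoxb13 (5.6) and another Hoxb9 region (13) had a peak in the double mutant alone. The 1 lost region, inside Hoxb8 (chr11:96284176-96284752), had 23.3 in the wild type and 17.8 to 51.2 in the 4 lists of set 1.

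In the Hoxc cluster the gains ran from Hoxc13 to beyond Hoxc4. A region in Hoxc4 (chr15:103018708-103019061) had −log10 p 46.7 in the double mutant, 42.0 in NUP98-HOXD13 and no peak in the other 6 lists. Regions at Hoxc5 (16.4 and 17.6), 25 bp from Hoxc6 (18.8 and 17.6) and at another place in Hoxc4 (17.3 and 17.4) had the same presence. The Hoxc9 gain at 39.4 was different, since the set 1 wild type held it at 38.2, as did the other lists of set 1. The highest value in the cluster was a shared region at Hoxc6 (chr15:102999037-103000053). It had −log10 p 188.6 in the double mutant and 175.8 in NUP98-HOXD13, and 26.6 in the wild type, 24.3 in the set 1 wild type, 23.6 in set 1 Flt3-ITD and 24.5 in Runx1-het. It ranked, with equal numbers of intervals, in the top 11.45% of the double mutant list and at 90.51% of the wild-type list. At the Hoxc4 promoter a shared region had 77.1 in the double mutant, 73.3 in NUP98-HOXD13 and 35.5 in the wild type. Its fold enrichment was nearly equal, 8.36 in the double mutant and 8.37 in the wild type. The medians over all shared regions were 8.81 and 11.86.

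Shared Hox regions also ranked higher by −log10 p in the double mutant, while the fold enrichment of most was lower there. At equal numbers of intervals 34 of 38 ranked higher, by a median of 16 percentage points, against a median of 0.84 over all 60998 shared regions. Among all shared regions with a gene 55.5% ranked higher. The median was 37.2 points in the Hoxc cluster, 22.2 in Hoxb, 12.3 in Hoxa and 5.9 in Hoxd. On equal numbers of peaks 37 of 45 ranked higher, by a median of 11.5 points, against 0.34 over all 64493 shared regions. The median was 26.8 in Hoxc, 16 in Hoxb, 8.6 in Hoxa and 2.5 in Hoxd. Over all peaks the Hoxd median was -0.9, with 5 of 11 regions higher. At equal numbers of intervals, fold enrichment was higher in the double mutant only at shared regions of Hoxa4, Hoxb1, Hoxc6 and Hoxc10. The median fold over all shared regions was then 9.13 in the double mutant and 12.33 in the wild type. The late Hoxa gene Hoxa9, a known leukaemia oncogene, had shared regions at 61.3 and 68.7 in the double mutant and 73.2 and 71.5 in the wild type. At Hoxd13 itself the promoter region (chr2:74668120-74668910) had 14.2 in the wild type and 20.4 to 24.2 in the 4 lists of set 1, and no peak in the double mutant, NUP98-HOXD13 or set 2 Flt3-ITD lists. Another Hoxd13 region was shared, with 43.5 in the wild type and 27 in the double mutant. The Hoxd4 promoter region (chr2:74721873-74722217) had 29.4 in the double mutant, 29.1 in NUP98-HOXD13 and no peak elsewhere.

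Lost regions were frequent at 2 genes of HOX cofactors. Around Meis1 and Meis2, a pair picked after their values had been seen, 24 of 43 regions were lost (55.8%) and 1 was gained (2.33%). Among all regions with a gene 22.1% were lost and 10.4% gained. On equal numbers of intervals 15 of 34 were lost (44.1%) and 1 gained (2.94%), against 13.9% and 15.5%. Meis1 had 9 lost and none gained of 24, and Meis2 15 lost and 1 gained of 19. The highest lost region in Meis2 (chr2:115984917-115985701) had −log10 p 98.6 in the wild type, 18.8 in the set 1 wild type, 18.7 in set 1 Flt3-ITD, 28.5 in Runx1-het and 11.9 in set 2 Flt3-ITD. A region near Meis1 (chr11:18821291-18821752) had 52.3 in the wild type, 28.5 in NUP98-HOXD13 and 39.2 to 81.1 in the 4 lists of set 1.

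The strongest regions of these genes were in both lists. The Meis1 promoter region had −log10 p 501.9 in the wild type and 213.3 in the double mutant, and the strongest Meis2 region 182.5 and 62.1. Pbx3, a further cofactor gene, differed from these with 3 gained and 1 lost of 10 regions. Its highest shared regions had 228.4 and 200.7 in the double mutant and 162.9 and 179.5 in the wild type. They ranked, with equal numbers of intervals, at 8.6% and 10.46% of the double mutant list and at 26.44% and 23.88% of the wild-type list. Their fold enrichment was lower in the double mutant, 12.76 and 18.69 against 13.7 and 24.41 in the wild type.

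**Figure D4:**
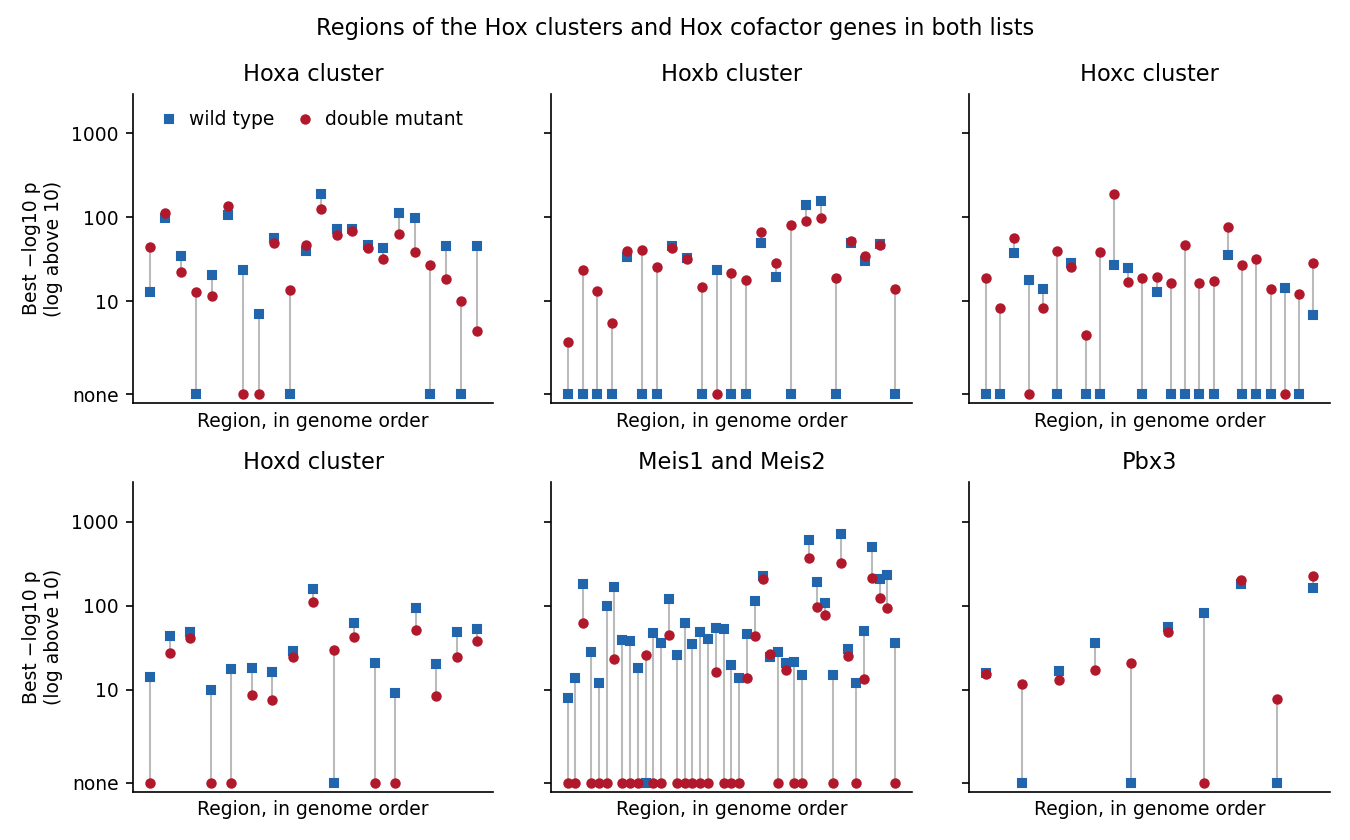
Best −log10 p (vertical axis, log scale above 10) of every region nearest to a Hox gene, Meis1, Meis2 or Pbx3 in the double mutant (red circles) and wild-type (blue squares) lists, in genome order, with "none" for no peak. In the Hoxb and Hoxc clusters 12 and 14 regions have a peak in the double mutant only, and at Meis1 and Meis2 together 24 have one in the wild type only.

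The same groups were counted against each wild type and between the wild types, with the 72460 highest intervals of every list. At the 4 Hox clusters 46.5% of regions were gained and 4.23% lost against the set 2 wild type, and 44.3% and 16.5% against the set 1 wild type. Between the wild types 29.1% were only in set 1 and 18.2% only in set 2, a larger difference than the 13.6% and 12.7% over all regions with a gene. In Hoxb 11 were gained and 1 lost of 21 against set 2, and 12 and 3 of 23 against set 1. The wild types there differed by 4 only in set 1 and 3 only in set 2 of 14. In Hoxc 14 were gained (73.7%) and 0 lost of 19 against set 2, and 13 (59.1%) and 4 of 22 against set 1. The Hoxc wild types differed by 6 only in set 1 (54.5%) and 2 only in set 2 of 11. The Hoxc gains thus did not clearly exceed the wild-type difference, a comparison that rests on few regions and was not tested. At Meis1 and Meis2 the lost share was 42.4% against set 2 and 44.1% against set 1, and the wild types differed by 18.4% only in set 1 and 10.5% only in set 2. With all peaks, 25 of the 31 gained Hox regions (80.6%) were absent from both wild types, against 73.5% of all gained regions with a gene. In Hoxc 11 of the 14 gained regions (78.6%) were absent from both wild types. Of the 24 lost regions at Meis1 and Meis2 12 were present in both, against 38.8% of all lost regions with a gene.

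Genes downstream of Flt3 had gained shares nearer to those of all genes, and at STAT5 genes the wild types differed about as much. Of 177 regions nearest to STAT5 targets and feedback genes 23 were gained (13%) and 22 lost (12.4%). Among all regions with a gene 10.4% were gained and 22.1% lost. With equal numbers of intervals 17.8% of the STAT5 regions were gained and 4.91% lost, against 15.5% and 13.9%. The lost share at STAT5 genes was thus below that of all genes in both counts. At 72460 intervals 15.6% were only in the double mutant and 4.55% only in the set 2 wild type, and the set 1 against the set 2 wild type gave 15.6% and 6.49%. A region near Osm, which encodes the cytokine oncostatin M (chr11:4232622-4233083), had −log10 p 41.1 in the double mutant, 15.7 in set 2 Flt3-ITD, 59.0 in set 1 Flt3-ITD, 88.5 in Flt3-ITD/Runx1-het and 14.9 in Runx1-het, and no peak in either wild type or in NUP98-HOXD13. Osm thus had this peak in all 4 Flt3-ITD lists and 1 other.

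A region near Socs1, a feedback inhibitor of cytokine signalling, had 29.5 in the double mutant, 67.2 in set 1 Flt3-ITD and 100.2 in Flt3-ITD/Runx1-het, but also 36.6 in the set 1 wild type. The promoter region of Socs3, another inhibitor of this family, was shared with 118.6 in the double mutant and 57.5 in the wild type, at 13.3% and 39.2% of the lists. The Pim1 promoter region, at a kinase gene induced by STAT5, had 351.6 and 337.0, and the Cish promoter region 178.8 and 262.1. Of 201 regions at MAPK feedback genes 21 were gained (10.4%) and 41 lost (20.4%), near the shares of all genes, and all 12 promoters of that list were covered in both genotypes.

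Interferon response genes had 13 gained (9.85%) and 19 lost (14.4%) of 132 regions, against 10.4% and 22.1% among all regions with a gene. The excess turned on equal numbers of intervals, with 20 gained (16.3%) and 9 lost (7.32%) of 123, against 15.5% and 13.9%. The direction turned again against the set 1 wild type, with equal numbers of intervals in all 3 lists. It gave 11.7% gained and 14.8% lost, where the set 2 wild type gave 13.6% and 7.63%. The wild types themselves differed by 18.6% only in set 1 and 8.53% only in set 2. With all peaks, 7 of the 13 gained regions (53.8%) were absent from both wild types, against 73.5% of all gained regions with a gene. Promoters of interferon response genes were nearly all covered, 31 of 35 in the wild type and 34 in the double mutant. The 3 that only a double mutant peak covered were Oas1a, Oasl1 and Oasl2, which belong to the family of double-stranded RNA sensors that make oligoadenylates. The Oas1a promoter region (chr5:120907410-120907838) had −log10 p 34.7 in the double mutant and 16.9 in set 1 Flt3-ITD, and no peak in the other 6 lists. The Oasl1 promoter region had 41.1 in the double mutant but also 15.2 in the set 1 wild type, 20.7 in Runx1-het and 21.9 in Flt3-ITD/Runx1-het. At Oasl2 both lists held a peak in the region, at 49.7 and 37.5, and the wild-type peak stopped short of the promoter window. Irf7, Irf9, Rsad2 and Ifit1 had promoter regions in both lists, for example Rsad2, an antiviral enzyme gene, with 508.6 in the wild type and 311.3 in the double mutant.

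The longest unbroken run of gained regions in the genome lay over the Oas1 genes. It held 7 consecutive regions nearest to Oas1f, Oas1h, Oas1g, Oas1a and Oas1d over 64.8 kb (chr5:120849664-120914511), each weak, with −log10 p from 10.8 to 34.7. With equal numbers of intervals the run held 9 regions and reached Rph3a, and it was still the longest. The Oas1 genes are near copies of each other, so reads could be assigned to more than 1 of them, which was not tested. Runs of 4 or more gained regions numbered 26 and runs of lost regions 602, and with equal numbers of intervals 92 and 243. The longest lost run held 14 regions with no gene within 100 kb (chr7:136070836-136604353), and another of 13 lay over Pid1, which encodes an adaptor protein.

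Fetal and neonatal progenitor genes had 19 gained (16.7%) and 32 lost (28.1%) of 114 regions, against 10.4% and 22.1% among all regions with a gene. On equal numbers of intervals 23 were gained and 21 lost of 103. Lin28b, which encodes an RNA-binding protein of fetal blood progenitors, had 4 gained and 3 lost regions. Gains at chr10:45470836-45471104 (−log10 p 22.9) and chr10:45473187-45473545 (24.8) were present in NUP98-HOXD13 (11.5 and 21.1) and in no other list. The Lin28b promoter region was shared with 80.2 in the double mutant and 62.4 in the wild type. The promoter of Igf2bp3, an RNA-binding protein gene of fetal tissues, had a peak in the double mutant alone (31.6). Regions at Hmga2 (31.7), Igf2bp1 (33.7) and Igf2 (25.2) were gained but had peaks of 30.1, 25.8 and 12.9 in the set 1 wild type. Mrc1 (138.0), Igf2bp2 (123.7) and Cdh5 (104.5) had the highest losses of this list, and the set 1 wild type held all 3. At 72460 intervals the list had 21.1% gained and 18.9% lost against set 2, where all regions with a gene had 15.0% and 13.3%. Against set 1 it had 24.5% gained and 17% lost, where all regions with a gene had 16.3% and 15.4%, and the wild types differed by 12.5% and 18.2%.

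Among haematopoietic transcription factors 60 of 531 regions were gained (11.3%) and 126 lost (23.7%), close to all genes. Lmo2, a bridging factor of the stem cell complex and a T cell leukaemia oncogene, had a gained region (chr2:103935739-103936301) with −log10 p 82.5 in the double mutant, 77.5 in NUP98-HOXD13 and no peak in the other 6 lists. Nfia, a nuclear factor I gene, had a gain present in the same 2 lists (33.8 and 18.6). Runx2 (110.3), Fli1 (106.3), Ikzf2 (97.9) and another Nfia region (107.0) were lost, and the other lists held them except set 2 Flt3-ITD for Fli1 and Nfia.

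The stem cell list had 30 gained (11.5%) and 65 lost (24.9%) of 261 regions, near the 10.4% and 22.1% of all regions with a gene, and on equal numbers of intervals 45 gained and 38 lost of 234. Its promoters were covered at 16 of 16 genes in the wild type and 14 in the double mutant. The exceptions were Ndn and Prdm16, and at Prdm16 the double mutant held a peak nearby. Mecom, which encodes the stem cell factor Evi1, was among the genes with the most gained regions, with 10 gained, 9 lost and 25 shared. Its highest gain had 44.3 in the double mutant and 46.3 in NUP98-HOXD13, and 8.3 in the set 1 wild type. The granulocyte-monocyte list had 26 gained (15.1%) and 26 lost (15.1%) of 172 regions, against 10.4% and 22.1% among all regions with a gene. Cebpb, a factor of emergency granulopoiesis, gained a region at 51.4 that set 1 wild type held at 36.7, and the Mpo promoter region had 25.4 in the double mutant and 16.3 in the wild type. At 72460 intervals this list gave 23.4% gained and 8.86% lost, against 15.0% and 13.3% over all genes, and the wild types differed by 21.3% and 9.03%.

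Neural and synaptic genes, which are long and not known for a role in blood progenitors, had the highest lost share among the 18 lists. Of 426 regions 161 were lost (37.8%) and 37 gained (8.69%), against 22.1% and 10.4% among all regions with a gene. With equal numbers of intervals 28.8% of the regions of neural genes were lost and 12.9% gained, against 13.9% and 15.5%. In shared regions of these genes the median rank difference, double mutant minus wild type and positive where the double mutant ranked higher, was -14.08 points. The direction did not hold with the other wild type. At 72460 intervals 29.6% were lost and 11.7% gained against set 2, 18% and 25.8% against set 1, and the wild types differed by 4.22% only in set 1 and 32.2% only in set 2. The median gene of this list spanned 1039.7 kb, against 22.2 kb for all genes with a region. Over all genes outside the list the lost share was 18.6% for genes under 50 kb and 35.7% for genes of 500 kb or more. The part of gene length in the list's share was not tested.

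Single neural regions differed from that picture. Syt1, a synaptic vesicle protein gene, had a gain with −log10 p 64.6 in the double mutant, 67.0 in set 2 Flt3-ITD, 108.5 in set 1 Flt3-ITD and 275.1 in Flt3-ITD/Runx1-het, and none in the 4 lists without Flt3-ITD. Regions in Dlg2 (73.2) and Csmd1 (49.0) were gained and had a peak in 1 other list, that of NUP98-HOXD13. A region in Nrxn3, a presynaptic adhesion gene, was lost at 243.2, and the set 1 wild type held it.

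**Figure D5:**
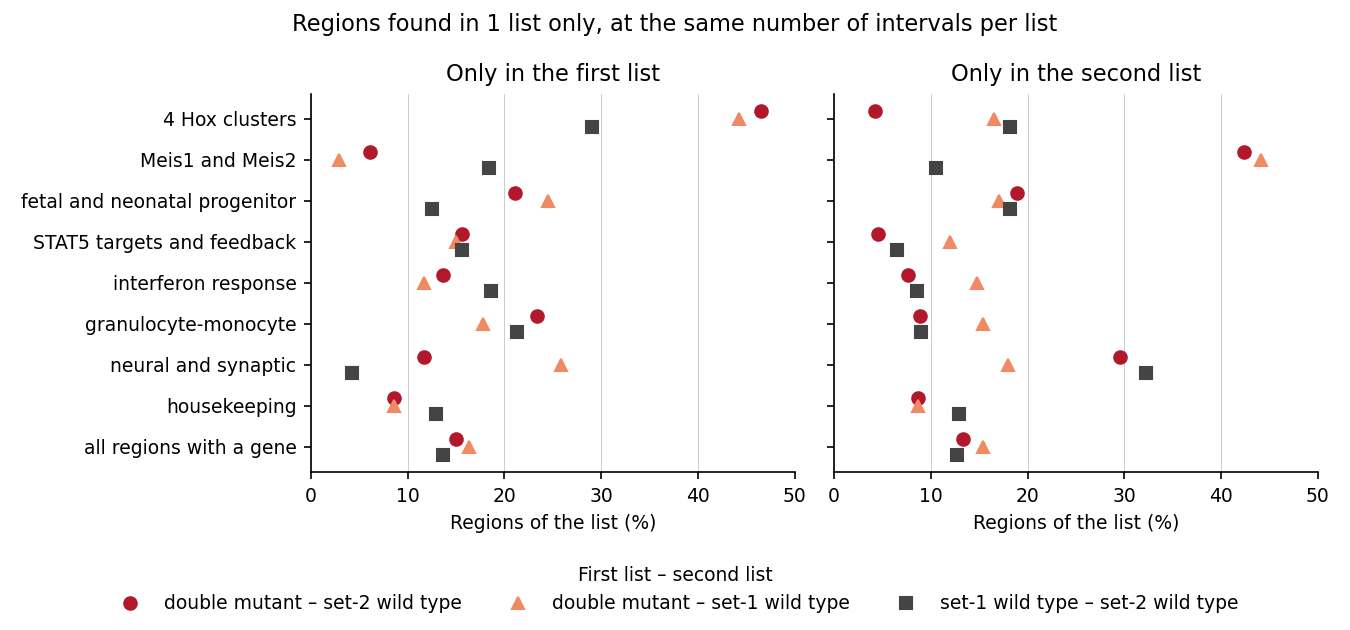
Share of each gene list's regions (percent) found only in the first list (left) and only in the second list (right) of 3 pairs, on the 72460 highest intervals of every list: double mutant and set 2 wild type (dark red circles), double mutant and set 1 wild type (orange triangles), and set 1 and set 2 wild types (grey squares). At the Hox clusters both pairs with the double mutant lie at 44.3% and 46.5% on the left, and at neural genes the pair of wild types reaches 32.2% on the right.

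At housekeeping genes 3 of 63 regions were gained (4.76%) and 10 lost (15.9%), against 10.4% and 22.1% among all regions with a gene. All 14 housekeeping promoters were covered in both genotypes. The remaining lists, of lineage markers and of receptors, had 8.82% to 14.5% of regions gained and 18.4% to 30.3% lost. B cell genes had the highest gained share and stroma and endothelium genes the upper lost share.

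Counted by gene, 5577 of 16893 genes with a region had a gained region (33.0%) and 8485 a lost region (50.2%). Tshz2, a zinc finger gene, had the most gained regions with 17, beside 7 lost and 25 shared, followed by the transcription factor gene Foxn3 with 12. Atp8b4, a phospholipid flippase gene, had 11 gained and 1 lost over 179.7 kb, and Maml3, which encodes a Notch coactivator, 10 gained and 3 lost. Nav2 (23 lost and 3 gained), Macrod2 (22 and 6), Foxp1 (21 and 5) and Fhit (20 and 1) had the most lost regions. Nrxn3 had 20 lost and none gained. Tshz2 had, on equal numbers of intervals, 22 gained and 5 lost, Nav2 8 lost and 6 gained, and Nrxn3 16 lost and none gained. Wwox, a fragile site gene of 913.1 kb, was high in both directions, with 11 gained and 20 lost.

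Over all promoters 12101 of 20085 were covered in both lists (60.2%), 274 in the double mutant only (1.36%), 508 in the wild type only (2.53%) and 7202 in neither (35.9%). With equal numbers of intervals 416 were covered in the double mutant only and 343 in the wild type only. Promoters covered in 1 list only lay between the others in base composition. Their median GC content was 56.0% in the double mutant and 55.3% in the wild type, against 62.0% for promoters covered in both and 47.3% for neither. The median number of CpG dinucleotides was 10 and 8, against 22 and 3. The interferon-stimulated element was in 4.74% of promoters covered in the double mutant only, 3.35% in the wild type only, 3.01% in both and 3.94% in neither. The PBX-HOX site was in 4.01%, 1.57%, 0.983% and 5.73% of the same classes, and the HOX group 13 site in 4.01%, 2.17%, 2.19% and 6.21%.

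Shared regions kept similar ranks in most cases. With equal numbers of intervals 4106 of 60998 (6.73%) ranked over 25 points higher in the double mutant and 3376 (5.53%) over 25 points lower. The largest difference upwards with equal numbers of peaks was in Tiam1, a Rac exchange factor gene (chr16:89838957-89839922), with −log10 p 123.3 in the double mutant, 52.8 in NUP98-HOXD13, 17.5 in Flt3-ITD/Runx1-het and 9.2 in the wild type. The region nearest to Gjb5 (95.5 and 9.2) and that nearest to Gnai1 (89.8 and 11.9), which encodes a G protein subunit, ranked higher in the same way, and NUP98-HOXD13 had 38.7 and 93.5 there. The largest differences downwards included Nudt22 at its promoter (1.4 in the double mutant and 119.8 in the wild type), Spata16 (8.0 and 216.1) and Cldn18 (8.0 and 210.2). With equal numbers of intervals the leading regions upwards included Cdk5rap2 (167.7 and 20.6), Galnt2 (183.3 and 24.7) and the Hoxc6 region described above. Shared regions held more summits in the double mutant at 20.6% and in the wild type at 12%, and were wider in the double mutant at 56.9%.

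At Flt3 the promoter and 6 further regions were shared. The promoter had the highest value, and the next regions had −log10 p 695.5 and 600.0 in the wild type and 321.7 and 308.7 in the double mutant. 2 weak regions were lost, at 17.0 and 11.9 in the wild type. No region had Nup98 as its nearest gene.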

How the data were processed

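ATAC-seq peaks of 4 of the 16 samples were compared, and the other 6 peak lists were read only for single regions and for the set 1 wild type. Reads were aligned with Bowtie2 and peaks called with MACS2 on mm10 (GRCm38), per the submitters' processing notes. For versions, thresholds, read shifting and the pooling of a group's 2 samples, nothing is known (not given in the sources used here). Each deposited list holds, per peak summit, a fold enrichment over background, a −log10 p and a −log10 q, and a score from 413 to 1000 of unstated meaning, which was not used. These values are the authors' own. Column 8, the −log10 p deposited by the authors, ranked peaks within a list. It moves with depth, which is unknown here, so values given side by side for several lists describe each list and can differ with depth.

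Peaks of chromosomes 1 to 19 were merged where they overlapped by at least 1 bp within and over lists (Python 3.11.15, pandas 2.3.3, numpy 2.4.6, matplotlib 3.10.9). Values of a region in all 8 lists were read with bedtools 2.31.1. A region took the nearest RefSeq protein-coding gene whose span lay at most 100 kb away. Promoter measures leave out chromosome 18, not analysed here. The classes were tested on simulated lists with known gains and losses. There was no test between genotypes, as each group had 1 list. The 18 gene lists held 385 genes, of which 376 matched an autosomal gene.

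The members, gene lists and tests were chosen with earlier results of these data known. Named were the 12 highest gained and 12 highest lost regions with a gene within 100 kb (1 per gene), the 8 genes with most of each, the 8 shared regions with the largest rank difference each way, up to 4 members per list and direction, Flt3, Nup98, Meis1, Pbx3 and the Hox genes. Other regions, namely Lin28b, runs, no-gene regions, the printed promoters, shared promoters and further regions of named genes, were chosen after their values had been seen. Alternatives were equal numbers of peaks, 50% overlap, a 500 bp margin, −log10 q of at least 5, the set 1 wild type, ranking by fold, the top 10% as strong and a gene distance of 20 kb. Equal numbers of intervals and the use of both wild types were added after seeing the data. Regions of some list members are not reported here.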

Additional observations from a re-analysis of the deposited data

How the results depend on the processing

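Of the counts over all regions or genes under the alternatives, 44 stayed within 1.5 times the value given and 17 did not. Strong counts depended most on the setting. They were 55 gained and 327 lost among peaks with −log10 q of at least 5, 311 and 1428 when ranked by fold enrichment, 311 and 1219 with equal numbers of peaks by fold enrichment, and 2 and 25 for the top 10%. Against the set 1 wild type the direction of the excess turned, with 16254 gained and 12959 lost regions, 352 of them strong gains and 118 strong losses. Both alternatives that follow were added after seeing the data. Equal numbers of intervals gave 13174 lost regions and 31 strong gains and 81 strong losses, by construction with a shorter wild-type list and ranks counted over intervals in place of peaks. Use of both wild types, which by construction asks for a peak in 2 lists, gave 8550 lost regions and 4791 genes with a lost region. The cause was not tested in the other cases. Of the values for single genes 286 kept within 1.5 times and 74 did not, 27 of these with both wild types, 21 with equal intervals, 20 with the set 1 wild type and 6 with a gene distance of 20 kb. No paired analysis was possible because both samples of a group share 1 peak list, and for the same reason no sample could be left out. Read depth is unknown, so the absence of a peak is not evidence of closed chromatin, and weak regions carry most of the gained and lost counts.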
